A study of Mus musculus with 12 samples.

Results

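The chemokine and chemokine receptor genes were taken by symbol (Ccl, Cxcl, Cx3cl and Xcl ligands, and Ccr, Cxcr, Cx3cr, Xcr and Ackr receptors, each followed by a digit), with the probe set of the highest mean standing for a gene. This gave 54 of the 18194 genes with a probe set of their own, 33 ligands and 21 receptors. RNA came from whole lungs of C57BL/6 mice, perfused with PBS and collected 21 days after an endotracheal dose of bleomycin, a DNA-damaging drug used to bring on lung fibrosis, or of saline. The 4 groups of 3 arrays were FIZZ2 knockout with bleomycin (KO bleomycin), FIZZ2 knockout with saline (KO saline), wild type with bleomycin (WT bleomycin) and wild type with saline (WT saline). FIZZ2 is the secreted protein encoded by Retnlb. The labels give neither the construct of the knockout allele nor the ages of the animals. They do not say that replicates came from different animals, so p-values here measure only the spread between these samples, which may be technical.

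Chemokines are small secreted proteins that guide migrating cells, and most of their receptors are G protein-coupled receptors on leukocytes. In an injured lung, CC ligands such as Ccl2 draw monocytes that mature into macrophages, CXC ligands such as Cxcl1 draw neutrophils, and the interferon-induced Cxcl9 and Cxcl10 draw activated T and NK cells. The atypical receptors (Ackr) bind and clear or transport ligands without G protein signalling. Each ligand-receptor pairing used here is a textbook one, mostly from mouse and human work.

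The 250 bases before the start of transcription are shown for 6 genes around which the results turn, 4 ligands with large changes and the receptors Ccr1 and Ccr2. They are RefSeq sequences on GRCm38.p6, written 5′ to 3′ on the gene's own strand. Capitals mark any match to GGANNTTCC (NF-kappaB-like), TTCNNNGAA (STAT-like), GAAANNGAA (interferon response element-like) or TGANTCA (AP-1-like), each searched on both strands.
Ccl8, chr11:82114935-82115184, plus strand: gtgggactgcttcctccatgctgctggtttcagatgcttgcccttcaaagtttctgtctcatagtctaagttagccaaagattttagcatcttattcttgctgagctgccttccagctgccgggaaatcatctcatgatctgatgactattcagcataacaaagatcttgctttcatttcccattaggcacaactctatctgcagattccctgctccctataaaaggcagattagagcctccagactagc
Ccl12, chr11:82101595-82101844, plus strand: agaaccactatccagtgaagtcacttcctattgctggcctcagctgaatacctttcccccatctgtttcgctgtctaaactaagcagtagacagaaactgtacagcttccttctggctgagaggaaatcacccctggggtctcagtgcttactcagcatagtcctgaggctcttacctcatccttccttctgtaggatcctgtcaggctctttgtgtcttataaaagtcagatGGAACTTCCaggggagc
Ccl9, chr11:83578637-83578886, minus strand: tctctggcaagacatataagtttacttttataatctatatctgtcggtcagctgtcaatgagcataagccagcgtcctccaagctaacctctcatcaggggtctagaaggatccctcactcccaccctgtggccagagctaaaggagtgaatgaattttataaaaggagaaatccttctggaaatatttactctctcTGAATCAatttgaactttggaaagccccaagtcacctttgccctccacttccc
Cxcl10, chr5:92348890-92349139, minus strand: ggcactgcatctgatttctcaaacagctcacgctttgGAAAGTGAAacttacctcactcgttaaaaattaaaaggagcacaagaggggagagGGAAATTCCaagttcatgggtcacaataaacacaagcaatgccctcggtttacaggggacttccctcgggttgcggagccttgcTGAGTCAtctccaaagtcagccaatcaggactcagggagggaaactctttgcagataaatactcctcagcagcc
Ccr1, chr9:123968693-123968942, minus strand: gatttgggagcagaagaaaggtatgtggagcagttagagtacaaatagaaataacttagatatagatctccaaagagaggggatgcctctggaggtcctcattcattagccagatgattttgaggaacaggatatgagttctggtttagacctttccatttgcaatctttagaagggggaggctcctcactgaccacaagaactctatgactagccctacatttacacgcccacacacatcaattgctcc
Ccr2, chr9:124101933-124102182, plus strand: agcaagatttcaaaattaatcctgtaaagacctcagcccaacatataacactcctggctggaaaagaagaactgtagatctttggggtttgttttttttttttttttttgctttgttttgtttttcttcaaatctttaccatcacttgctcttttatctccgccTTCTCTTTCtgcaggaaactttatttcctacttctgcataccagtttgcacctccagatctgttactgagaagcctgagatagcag

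Ccl12 and Ccl8 lie close together on chromosome 11. In these windows Ccl12 held the NF-kappaB-like letters 17 to 9 bases before the start, Ccl9 the AP-1-like letters and Ccr2 the interferon response element-like letters. Cxcl10 held 3 matches, to the interferon response element-like, NF-kappaB-like and AP-1-like letters, and no printed match overlaps another. Ccl8 and Ccr1 held none of the 4. Of the members, 41 matched the promoter table, with 45 windows. NF-kappaB-like letters stood in 7 of these 45 windows (15.6%), those of Ccl1, Ccl12, Ccr3, Cxcl1, Cxcl2, Cxcl3 and Cxcl10, against 3.59% of all 32851 windows. Cxcl1, Cxcl2 and Cxcl3 held identical letters at this match and lie close together on chromosome 5, so the 7 windows may not be independent. STAT-like letters stood in 4 of the 45 and 7.02% of all, interferon response element-like letters in 6 and 7.13%, and AP-1-like letters in 5 and 6.75%. A match describes letters in a window and does not show a bound site.

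Values are log2 RMA summaries, so a difference of 1 is a doubling. Array medians lay between 5.58 and 5.68, and arrays of 1 group correlated at 0.988 to 0.997 over all probe sets. Lung epithelial markers (8 measured, surfactant and club cell genes among them) had summed log2 levels of 16.35 to 16.42 in KO bleomycin, 16.27 to 16.33 in KO saline, 15.90 to 16.21 in WT bleomycin and 16.33 to 16.36 in WT saline. The WT bleomycin range lay below the others, with 3 of the 8 lower than in WT saline and 3 lower than in KO bleomycin, and the part of this in the member changes was not tested. Retnlb itself was dim, at 3.67, 3.72 and 3.49 on the KO bleomycin arrays, 3.69, 3.54 and 3.83 on the KO saline arrays, 4.13, 3.80 and 3.98 on the WT bleomycin arrays and 3.65, 3.84 and 3.57 on the WT saline arrays. Its KO and WT values were nearly alike after saline, and after bleomycin KO lay below WT without passing the test (-0.35 ± 0.11, adjusted p = 0.0502), so this probe set is a weak check of the genotype. Of the members, 15 averaged under 5 over the arrays, where signal may not be distinguishable from background, and 39 did not. Changes below are log2 differences ± SE from 1 limma fit of all arrays, and a change was called where its p, adjusted by Benjamini-Hochberg across the 18194 genes, was under 0.05.

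In WT lungs, the 3 largest rises after bleomycin were those of CC ligands. Ccl8 rose 11.3-fold, Ccl12 6.79-fold and Ccl9 6.30-fold, together with the receptors Ccr1 and Ccr2. Cxcl9 rose 4.07-fold and Cxcl10 4.39-fold, and Ccl5, Cxcr5 and Cxcr4 were among the genes that fell. In all, 21 of 54 members (38.9%) were called higher, against 13.3% of all genes, and 8 (14.8%) lower, against 14.4%. Ligands made up 16 of the 21 higher and 3 of the 8 lower members, and the receptors were split evenly, with 5 higher and 5 lower. The median change was 0.23 over the members and -0.04 over all genes. Because the RNA is from whole lung, fewer or more cells of a type and less or more RNA per cell cannot be told apart.

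**Figure D1:**
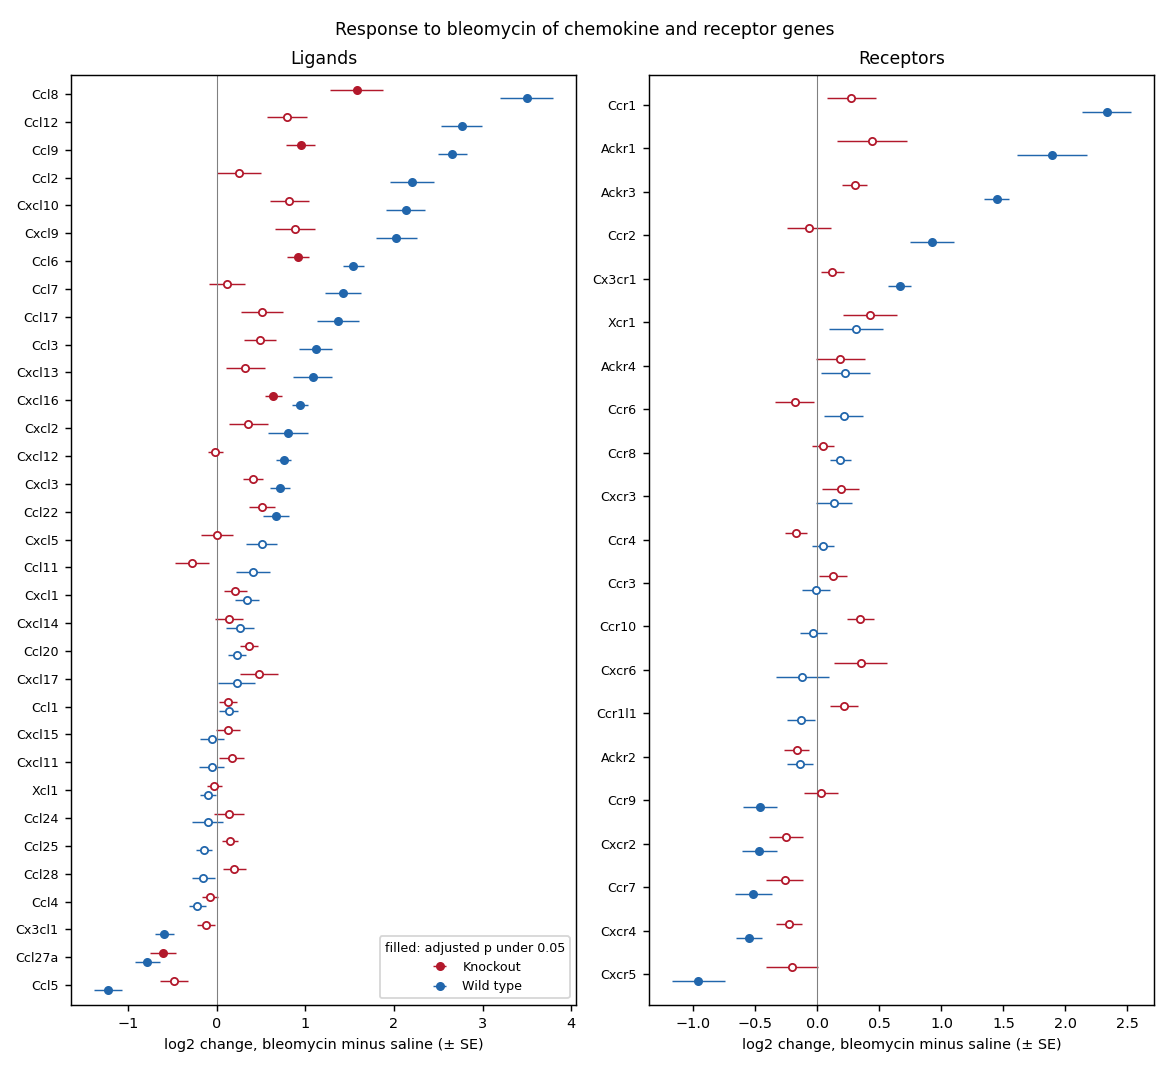
Log2 change with bleomycin (bleomycin minus saline, x axis) for each ligand (left) and receptor (right), with knockout in red and wild type in blue. Points are fitted changes with SE bars (3 arrays per group), and filled points have an adjusted p under 0.05. Ccl8, Ccl12 and Ccl9 stand highest in wild type (3.50, 2.76 and 2.66), and no receptor point is filled in knockout.

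Ligands of Ccr2, the receptor that brings inflammatory monocytes out of bone marrow and into tissue, were among the members that rose in WT. Ccl12, a mouse ligand of Ccr2, had 4.87, 5.24 and 5.69 on the KO bleomycin arrays, 4.31, 4.74 and 4.36 on the KO saline arrays, 8.13, 7.75 and 7.69 on the WT bleomycin arrays and 5.32, 5.36 and 4.59 on the WT saline arrays. The WT bleomycin arrays stood apart above all others, and the change was 2.76 ± 0.23, adjusted p = 3.29e-06. Ccl2, the founding monocyte chemoattractant, had 3.95, 3.91 and 4.37 on the KO bleomycin arrays, 3.76, 3.83 and 3.90 on the KO saline arrays, 6.81, 5.41 and 6.03 on the WT bleomycin arrays and 3.89, 3.92 and 3.83 on the WT saline arrays. Outside WT bleomycin it lay among the dimmer probe sets of its arrays (percentiles 26 to 30), so its 4.60-fold rise in WT (2.20 ± 0.25, adjusted p = 3.65e-05) starts from a dim level and may be an underestimate. Ccl7, also a Ccr2 ligand, had 3.65, 3.80 and 3.88 on the KO bleomycin arrays, 3.73, 3.52 and 3.73 on the KO saline arrays, 5.73, 4.83 and 4.73 on the WT bleomycin arrays and 3.78, 3.56 and 3.67 on the WT saline arrays. Its WT change was 1.42 ± 0.20, adjusted p = 1.77e-04, and the same limit holds. Ccr2 itself had 8.77, 9.66 and 9.17 on the KO bleomycin arrays, 9.35, 9.30 and 9.17 on the KO saline arrays, 9.54, 9.33 and 9.28 on the WT bleomycin arrays and 8.65, 8.47 and 8.25 on the WT saline arrays. It rose in WT (0.93 ± 0.18, adjusted p = 0.00174), where the groups did not overlap, while both KO groups lay at or near the WT bleomycin level. A dimmer probe set of Ccr2 did not pass in WT (-0.09 ± 0.09, adjusted p = 0.490), and both remaining ones rose (1.75 ± 0.42, adjusted p = 0.0105 and 0.42 ± 0.14, adjusted p = 0.0446).

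Of 5 listed ligands of Ccr1, a receptor of monocytes, macrophages and neutrophils, Ccl3, Ccl6 and Ccl9 rose, Ccl5 fell (given with the lymphocyte-related members) and Ccl4 did not pass (-0.22 ± 0.09, adjusted p = 0.108). Ccl9, a rodent chemokine that macrophages and other myeloid cells make, had 8.76, 9.57 and 9.44 on the KO bleomycin arrays, 8.23, 8.39 and 8.32 on the KO saline arrays, 10.39, 10.28 and 10.39 on the WT bleomycin arrays and 7.83, 7.72 and 7.55 on the WT saline arrays. The WT bleomycin arrays were the highest and the WT saline arrays the lowest (2.66 ± 0.16, adjusted p = 4.80e-07). Ccl6, another rodent chemokine of macrophages and among the brightest members, had 11.40, 11.64 and 11.79 on the KO bleomycin arrays, 10.63, 10.72 and 10.74 on the KO saline arrays, 11.97, 12.04 and 12.07 on the WT bleomycin arrays and 10.47, 10.74 and 10.24 on the WT saline arrays. It rose in WT (1.54 ± 0.12, adjusted p = 2.70e-06), with no overlap. Ccl3, an inflammatory ligand of Ccr1, had 4.35, 4.78 and 5.13 on the KO bleomycin arrays, 4.25, 4.31 and 4.23 on the KO saline arrays, 4.92, 5.61 and 5.41 on the WT bleomycin arrays and 4.29, 4.08 and 4.22 on the WT saline arrays. Its rise in WT was from a dim level (1.12 ± 0.19, adjusted p = 6.43e-04). Ccr1 had 6.58, 7.20 and 7.30 on the KO bleomycin arrays, 6.75, 6.83 and 6.68 on the KO saline arrays, 8.93, 8.21 and 8.39 on the WT bleomycin arrays and 6.41, 6.10 and 6.02 on the WT saline arrays. Its WT bleomycin values exceeded every other value, with a WT change of 2.33 ± 0.20, adjusted p = 3.83e-06. Ccl8, which in mouse signals through Ccr8, had 6.76, 7.62 and 8.25 on the KO bleomycin arrays, 6.19, 6.05 and 5.65 on the KO saline arrays, 9.58, 9.07 and 9.14 on the WT bleomycin arrays and 6.05, 5.86 and 5.40 on the WT saline arrays. It was the member with the largest WT change (3.50 ± 0.30, adjusted p = 4.05e-06), while Ccr8 stayed dim (0.18 ± 0.09, adjusted p = 0.136).

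Macrophage markers moved alongside these genes. Of 11 measured, 8 rose in WT, among them C1qa (2.49 ± 0.20), a complement component of tissue macrophages, and Cd68 (2.16 ± 0.11), a lysosomal macrophage protein. The log2 of their summed linear values was 14.31 to 14.44 in KO bleomycin, 14.10 to 14.18 in KO saline, 14.49 to 14.52 in WT bleomycin and 14.07 to 14.14 in WT saline. No marker was listed at 0, and the part of macrophage content in the chemokine changes was not tested.

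Among the CXC ligands, Cxcl10 had 5.24, 5.45 and 6.35 on the KO bleomycin arrays, 4.78, 4.96 and 4.85 on the KO saline arrays, 7.24, 6.78 and 7.21 on the WT bleomycin arrays and 5.00, 5.03 and 4.80 on the WT saline arrays. Its WT bleomycin arrays lay above all others (2.13 ± 0.22, adjusted p = 1.91e-05). Cxcl9, like Cxcl10 induced by interferon-gamma, had 5.18, 5.31 and 6.21 on the KO bleomycin arrays, 4.94, 4.70 and 4.41 on the KO saline arrays, 6.55, 6.80 and 7.10 on the WT bleomycin arrays and 4.74, 4.69 and 4.95 on the WT saline arrays, with the same order of groups and a WT change of 2.03 ± 0.23, adjusted p = 3.67e-05. Averaging all of its probe sets gave Cxcl9 a smaller WT change of 1.23. Their shared receptor Cxcr3, on activated T and NK cells, did not pass (0.13 ± 0.15, adjusted p = 0.544), nor did their companion ligand Cxcl11 (-0.06 ± 0.14, adjusted p = 0.790). Cxcl12, a stromal and endothelial chemokine that holds progenitor cells and lymphocytes in place, had 10.30, 10.33 and 10.21 on the KO bleomycin arrays, 10.43, 10.14 and 10.32 on the KO saline arrays, 11.02, 10.86 and 10.94 on the WT bleomycin arrays and 10.07, 10.24 and 10.25 on the WT saline arrays. It was bright everywhere and rose in WT (0.75 ± 0.09, adjusted p = 5.06e-05), and its second brightest probe set rose more (1.98 ± 0.18, adjusted p = 1.72e-05). Its scavenging receptor Ackr3 had 9.77, 9.79 and 9.70 on the KO bleomycin arrays, 9.49, 9.49 and 9.38 on the KO saline arrays, 11.33, 11.01 and 11.19 on the WT bleomycin arrays and 9.92, 9.57 and 9.71 on the WT saline arrays, with WT bleomycin again apart from the rest (1.45 ± 0.10, adjusted p = 1.40e-06). Its signalling receptor Cxcr4 had 9.23, 9.41 and 9.31 on the KO bleomycin arrays, 9.66, 9.46 and 9.50 on the KO saline arrays, 8.46, 8.84 and 8.83 on the WT bleomycin arrays and 9.34, 9.16 and 9.28 on the WT saline arrays. Cxcr4 fell in WT (-0.55 ± 0.11, adjusted p = 0.00168), so the 2 receptors of Cxcl12 moved in opposite directions.

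Ccl17, made by dendritic cells and macrophages, had 7.35, 8.30 and 8.42 on the KO bleomycin arrays, 7.34, 7.30 and 7.88 on the KO saline arrays, 9.38, 9.28 and 9.12 on the WT bleomycin arrays and 8.05, 7.98 and 7.65 on the WT saline arrays. The WT groups did not overlap, and the change was 1.37 ± 0.24, adjusted p = 9.17e-04. Ccl22, its companion ligand of Ccr4, rose less (0.67 ± 0.15, adjusted p = 0.00463), and Ccr4, found on helper and regulatory T cells, was dim and did not pass (0.05 ± 0.09, adjusted p = 0.732). Cxcl16, a membrane-bound ligand of macrophages, had 9.23, 9.29 and 9.44 on the KO bleomycin arrays, 8.69, 8.69 and 8.67 on the KO saline arrays, 9.71, 9.49 and 9.74 on the WT bleomycin arrays and 8.56, 8.74 and 8.83 on the WT saline arrays. Both bleomycin groups stood above both saline groups, with a WT change of 0.94 ± 0.09, adjusted p = 1.38e-05, and its receptor Cxcr6 did not pass (-0.12 ± 0.21, adjusted p = 0.711). Ackr1, which carries chemokines across venular endothelium, had 6.03, 6.54 and 6.25 on the KO bleomycin arrays, 5.85, 5.93 and 5.73 on the KO saline arrays, 8.83, 7.37 and 7.54 on the WT bleomycin arrays and 5.98, 6.13 and 5.95 on the WT saline arrays. The WT change was 1.89 ± 0.28, adjusted p = 2.78e-04, and 1 WT bleomycin array stood well above the other two.

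Of the neutrophil-attracting ligands, Cxcl2 and Cxcl3 rose in WT (0.80 ± 0.22 and 0.71 ± 0.12) from the dimmest part of the array. With array weights the change of Cxcl2 was 0.47. Without WT saline replicate 2 or WT bleomycin replicate 1, Cxcl2 lost its call (adjusted p = 0.0682 and 0.0631). Cxcl1 and Cxcl5 did not pass (0.34 ± 0.13, adjusted p = 0.0771 for Cxcl1 and 0.51 ± 0.18, adjusted p = 0.0506 for Cxcl5). Their receptor Cxcr2 had 6.17, 5.93 and 5.67 on the KO bleomycin arrays, 6.18, 5.98 and 6.36 on the KO saline arrays, 5.48, 5.44 and 5.40 on the WT bleomycin arrays and 6.16, 5.79 and 5.77 on the WT saline arrays. It fell in WT (-0.47 ± 0.14, adjusted p = 0.0226), a call lost without WT saline replicate 1 or without WT bleomycin replicate 2 or 3 (adjusted p = 0.103, 0.0527 and 0.0640). Among 8 measured neutrophil markers, 3 fell in WT (S100a8, S100a9 and Csf3r) and Mmp8 rose. Their summed log2 level was 11.67 to 12.27 in KO bleomycin, 12.88 to 13.34 in KO saline, 11.03 to 11.55 in WT bleomycin and 11.81 to 12.13 in WT saline, and its part in the Cxcr2 values was not tested.

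Some members tied to lymphocytes fell in WT, while others did not pass and Cxcl13, a B cell attractant, rose. The share of members called lower (14.8%) was near that of all genes (14.4%). Lymphocyte receptors that did not pass were Ccr6 (0.21 ± 0.16, adjusted p = 0.347), Cxcr3 (0.13), Ccr4 (0.05), Ccr8 (0.18) and Cxcr6 (-0.12). Cxcl13 had 6.78, 6.71 and 7.38 on the KO bleomycin arrays, 6.42, 6.76 and 6.72 on the KO saline arrays, 7.92, 7.24 and 7.49 on the WT bleomycin arrays and 6.19, 6.33 and 6.89 on the WT saline arrays. The WT groups did not overlap, and the change was 1.08 ± 0.22, adjusted p = 0.00254. Its second probe set, nearly as bright, rose more in WT (2.08 ± 0.36, adjusted p = 0.00137). By that set Cxcl13 did not pass in KO (1.01 ± 0.36, adjusted p = 0.196). Nor did it between genotypes after bleomycin (-1.15 ± 0.36, adjusted p = 0.0625). Its receptor Cxcr5, found on B cells and follicular T cells, had 7.01, 6.43 and 6.77 on the KO bleomycin arrays, 7.22, 6.81 and 6.80 on the KO saline arrays, 5.30, 5.56 and 6.23 on the WT bleomycin arrays and 6.61, 6.83 and 6.53 on the WT saline arrays. The WT bleomycin arrays were the lowest, and Cxcr5 fell in WT (-0.96 ± 0.21, adjusted p = 0.00424). Ccl5, made by NK and memory T cells, had 9.13, 9.01 and 8.79 on the KO bleomycin arrays, 9.39, 9.35 and 9.63 on the KO saline arrays, 7.97, 7.88 and 8.29 on the WT bleomycin arrays and 9.17, 9.64 and 9.01 on the WT saline arrays. It was the member with the largest fall (-1.23 ± 0.16, adjusted p = 9.75e-05), and its WT bleomycin arrays lay below all others. Ccr7, which guides dendritic cells and naive T cells to lymph nodes, had 7.59, 7.33 and 7.48 on the KO bleomycin arrays, 7.86, 7.60 and 7.74 on the KO saline arrays, 6.79, 6.73 and 7.24 on the WT bleomycin arrays and 7.39, 7.70 and 7.21 on the WT saline arrays, with 1 value of WT bleomycin inside the WT saline range (-0.52 ± 0.15, adjusted p = 0.0183). Ccr9, a gut-homing receptor, was dim at 4.67, 4.66 and 4.70 on the KO bleomycin arrays, 4.81, 4.54 and 4.60 on the KO saline arrays, 4.37, 4.71 and 4.48 on the WT bleomycin arrays and 5.01, 5.27 and 4.66 on the WT saline arrays, and its groups overlapped in WT (-0.47 ± 0.14, adjusted p = 0.0214). The Ccr7 call was lost without WT saline replicate 2, WT bleomycin replicate 1 or WT bleomycin replicate 2 (highest adjusted p = 0.0767). The Ccr9 call was lost without WT saline replicate 1 or 2 or WT bleomycin replicate 1 or 3 (highest adjusted p = 0.0847), and averaging its probe sets gave -0.22.

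These falls came with lower lymphocyte markers in WT. All 7 measured NK cell markers fell, led by Gzma (-2.29 ± 0.23), a granule protease, as did 5 of 7 B cell markers and 7 of 9 T cell markers. Summed log2 levels of the NK markers were 10.24 to 10.74 in KO bleomycin, 10.94 to 10.97 in KO saline, 8.79 to 9.36 in WT bleomycin and 10.58 to 11.13 in WT saline. Those of the B cell markers were 10.85 to 11.09 in KO bleomycin, 11.05 to 11.67 in KO saline, 9.70 to 10.45 in WT bleomycin and 10.72 to 11.04 in WT saline, and those of the T cell markers 9.89 to 9.99 in KO bleomycin, 10.10 to 10.35 in KO saline, 9.44 to 9.78 in WT bleomycin and 10.06 to 10.31 in WT saline. Their part in the Ccl5, Cxcr5 and Ccr7 changes was not tested. All 7 cardiac muscle markers fell in WT as well, with summed log2 levels of 11.02 to 13.03 in KO bleomycin, 12.78 to 13.47 in KO saline, 10.92 to 11.48 in WT bleomycin and 12.72 to 13.26 in WT saline, and their part in the member changes was not tested. Of the other lists, 2 of 5 dendritic cell markers rose and 1 fell in WT, and 1 of 4 adipocyte and 1 of 5 thymocyte markers fell. Of all genes 13.3% rose and 14.4% fell in WT, so single markers in lists this short say little about these cell types. In KO bleomycin 2 of 4 eosinophil markers were higher than in WT bleomycin, against 7.52% of all genes.

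**Figure D2:**
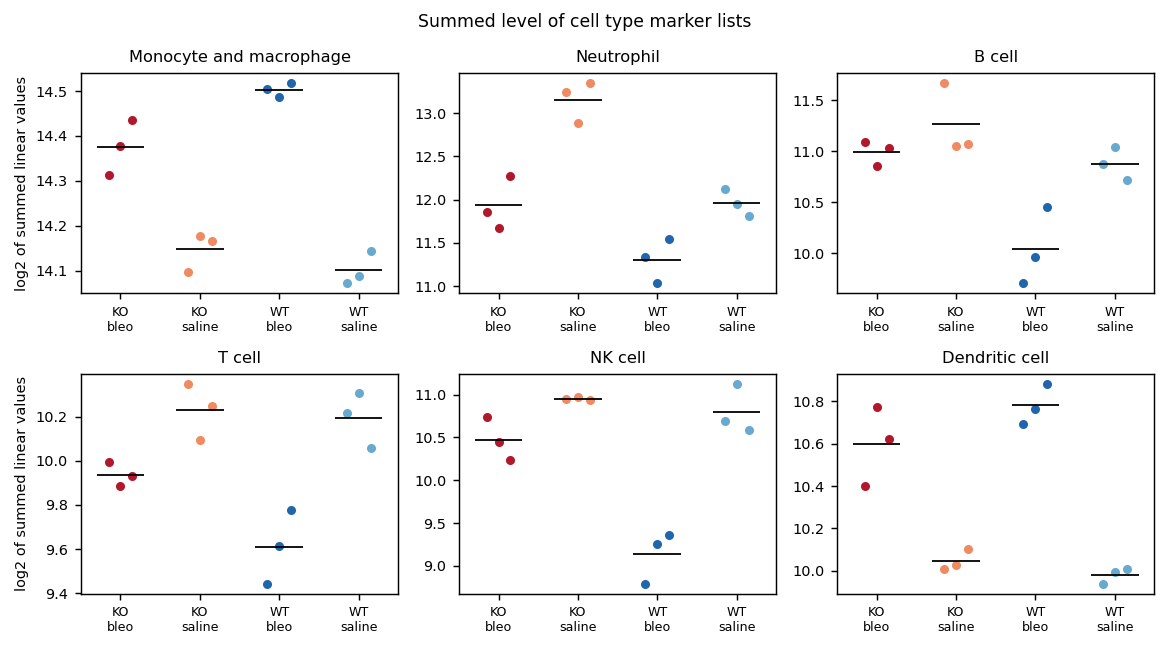
Log2 of the summed linear values of 6 cell type marker lists (y axis) on each array, by group, with bars at group means. Macrophage markers are highest in WT bleomycin (14.49 to 14.52) and NK cell markers lowest there (8.79 to 9.36).

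Cx3cl1, its receptor and Ccl27a complete the members called in WT. Cx3cl1, the membrane-bound ligand fractalkine of endothelium and epithelium, had 8.56, 8.26 and 8.21 on the KO bleomycin arrays, 8.52, 8.45 and 8.43 on the KO saline arrays, 7.85, 7.70 and 7.80 on the WT bleomycin arrays and 8.42, 8.19 and 8.52 on the WT saline arrays. It fell in WT (-0.59 ± 0.11, adjusted p = 0.00107), but its next brightest probe set did not (-0.06 ± 0.18, adjusted p = 0.850), and averaging its probe sets ended the call (-0.27, adjusted p = 0.0656). Its receptor Cx3cr1, of patrolling monocytes and tissue macrophages, had 7.13, 7.39 and 7.12 on the KO bleomycin arrays, 7.06, 7.24 and 6.98 on the KO saline arrays, 7.17, 7.24 and 7.30 on the WT bleomycin arrays and 6.64, 6.54 and 6.54 on the WT saline arrays. It rose in WT (0.66 ± 0.09, adjusted p = 1.91e-04), where WT saline was lower than the other 3 groups. Ccl27a, a ligand of Ccr10 best known from skin, had 5.87, 5.48 and 5.92 on the KO bleomycin arrays, 6.13, 6.40 and 6.56 on the KO saline arrays, 5.41, 5.74 and 5.54 on the WT bleomycin arrays and 6.28, 6.55 and 6.20 on the WT saline arrays. It was lower after bleomycin in WT (-0.78 ± 0.15, adjusted p = 0.00141). The 25 members that did not pass in WT had changes between -0.22 (Ccl4) and 0.51 (Cxcl5).

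In KO lungs few members passed the test for the same treatment, 5 of 54. At an unadjusted p under 0.05 there were 14 higher and 2 lower, with no share of all genes counted at that threshold. The median absolute change was 0.24 over the members and 0.10 over all genes. Ccl8, Ccl9, Ccl6 and Cxcl16 rose and Ccl27a fell, which is 4 of 54 (7.41%) higher, against 1.98% of all genes, and 1 (1.85%) lower, against 1.29%. Ccl8 rose 2.99-fold (1.58 ± 0.30, adjusted p = 0.0138), with every KO bleomycin array above every KO saline array. Without KO saline replicate 3, or without KO bleomycin replicate 2, its adjusted p was 0.0570. Ccl9 rose 1.93-fold (0.95 ± 0.16, adjusted p = 0.00826), Ccl6 1.89-fold (0.91 ± 0.12, adjusted p = 0.00209) and Cxcl16 1.56-fold (0.64 ± 0.09, adjusted p = 0.00351), each without overlap. Ccl27a was lower (-0.60 ± 0.15, adjusted p = 0.0424), a call lost in 10 of the 20 alternatives, with adjusted p up to 0.151. Those alternatives included leaving out WT saline replicate 1, WT bleomycin replicate 3, KO saline replicate 2 or 3 or KO bleomycin replicate 2 or 3. When array medians were subtracted 7 members were higher and 0 lower, and when quantile normalization was repeated 6 and 0. In KO 4 of 11 macrophage markers rose as well, Cd68 (1.14 ± 0.11), C1qa (1.49 ± 0.20), Adgre1 (0.69 ± 0.13) and Mrc1 (0.49 ± 0.11), while 3 of 8 neutrophil and 2 of 9 T cell markers fell, and their part in the member changes was not tested.

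Of the 21 receptors, limma called 0 in KO lungs, which lies near the shares of all genes (1.98% higher and 1.29% lower). Of these receptors 2 had an unadjusted p under 0.05, a threshold at which all genes were not counted. Receptor changes there ran from -0.26 (Ccr7) to 0.44 (Ackr1), against -0.96 to 2.33 in WT. Ligands close to the threshold in KO were Cxcl9 (0.88 ± 0.23, adjusted p = 0.0592), Cxcl10 (0.82 ± 0.22, adjusted p = 0.0671), Ccl20 (0.36 ± 0.10, adjusted p = 0.0708), Cxcl3 (0.41 ± 0.12, adjusted p = 0.0789), Ccl12 (0.79 ± 0.23, adjusted p = 0.0826) and Ccl22 (0.51 ± 0.15, adjusted p = 0.0875). For each of these, every KO bleomycin array exceeded every KO saline array. Of them, Ccl20 did not pass in WT either (0.23 ± 0.10, adjusted p = 0.112). Ccl2 and Ccl7 did not pass (0.25 ± 0.25 for Ccl2 and 0.12 ± 0.20 for Ccl7). The median member change was 0.18 in KO, against 0.01 for all genes. The count in KO depended on the arrays: it was 3 without KO saline replicate 3 or KO bleomycin replicate 2, and 12 without KO bleomycin replicate 1. That array was the lowest of its group for Ccl8, Ccl9, Ccl6, Ccl12, Cxcl9, Cxcl10 and Ccl17.

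Across the 54 members the KO and WT changes correlated (r = 0.797, Spearman 0.714, with members not independent of each other), against 0.630 over all genes, and 39 had the same sign. These comparisons share no arrays. The 29 members called in WT had a median absolute change of 0.36 in KO, against 1.08 in WT, where they were chosen.

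The difference between the responses was tested directly, as KO response minus WT response. It was negative for all 11 members called, 7 ligands and 4 receptors, which is 20.4% of members against 3.0% of all genes. In the positive direction limma called 0 members, against 2.03% of all genes. There 8 members had an unadjusted p under 0.05, a threshold at which all genes were not counted. The largest differences were those of Ccr1 (-2.06 ± 0.28, adjusted p = 0.00298), Ccl12 (-1.97 ± 0.32, adjusted p = 0.00669), Ccl2 (-1.95 ± 0.35, adjusted p = 0.00970) and Ccl8 (-1.92 ± 0.42, adjusted p = 0.0243). For these genes the bleomycin response in KO was smaller by a factor of 3.78 to 4.17. Ccl9 (-1.71 ± 0.23, adjusted p = 0.00298), Ackr3 (-1.15 ± 0.14, adjusted p = 0.00225) and Cxcl12 (-0.77 ± 0.13, adjusted p = 0.00669) followed. Ccl7 (-1.31 ± 0.28, adjusted p = 0.0210), Cxcl10 (-1.31 ± 0.31, adjusted p = 0.0329), Ccr2 (-1.0 ± 0.25, adjusted p = 0.0404) and Cx3cr1 (-0.54 ± 0.13, adjusted p = 0.0352) completed the set. Ackr1 (-1.45 ± 0.40, adjusted p = 0.0523), Ccl6 (-0.63 ± 0.17, adjusted p = 0.0544) and Cxcl9 (-1.14 ± 0.33, adjusted p = 0.0621) lay just outside the threshold.

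**Figure D3:**
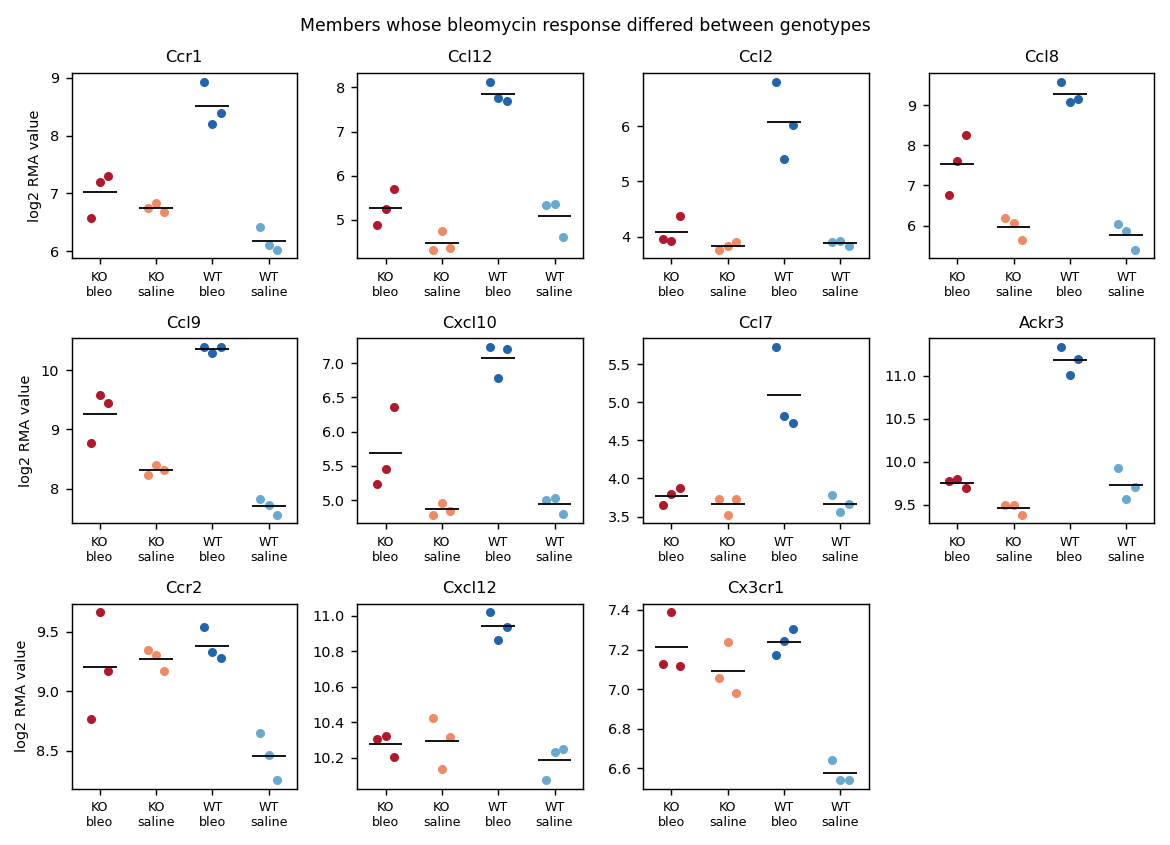
Log2 RMA value (y axis) on each of the 12 arrays for the 11 members whose response to bleomycin differed between genotypes, by group, with bars at group means. For Ccr1, Ccl12, Ccl2, Ccl8, Ccl9, Cxcl10, Ccl7, Ackr3 and Cxcl12 the WT bleomycin arrays stand alone at the top, and for Ccr2 and Cx3cr1 the WT saline arrays stand alone at the bottom.

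The arrays show 2 main patterns among these 11 differences, which were chosen by a test on the same values. For 9 of them every WT bleomycin array lay above every array of the other 3 groups. The share of all genes with such a separation was not counted. For Ccr1 and Ccl9, among these 9, every KO saline array also lay above every WT saline array. Those saline differences did not pass (KO minus WT 0.58 ± 0.20 and 0.61 ± 0.16). For Ccr2 and Cx3cr1 the bleomycin groups overlapped (KO minus WT -0.18 ± 0.18 and -0.03 ± 0.09), and WT saline lay below every other array. Of 19 alternatives, Ccr2 lost its call in 12 and Cx3cr1 in 11. Ccr2 lost it without any 1 of 11 arrays, all but KO bleomycin replicate 2 (adjusted p = 0.0509 to 0.0982). Cx3cr1 lost it without any 1 of 9 arrays, all but WT bleomycin replicate 1, KO saline replicate 3 and KO bleomycin replicate 2 (0.0512 to 0.0898). Cxcl10 was lost without any 1 of 9 arrays, all but WT saline replicate 2, WT bleomycin replicate 2 and KO bleomycin replicate 3 (0.0610 to 0.0766). Ccl8 was lost without WT saline replicate 3, WT bleomycin replicate 1 or KO saline replicate 1 or 2, and Ccl7 without KO saline replicate 1 or 3 or KO bleomycin replicate 1 (highest 0.0692 and 0.0596). Without KO saline replicate 1 the count was 6, and without KO saline replicate 2 or KO bleomycin replicate 1 it was 7. The same test called 5 of 11 macrophage markers lower, with Cd68 at -1.02 ± 0.15 and Itgam at -1.52 ± 0.30, and 2 NK markers higher.

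Comparing the genotypes after bleomycin, KO lungs held less Ccl12, Ccl2, Ccl8, Ackr1 and Ccr1 than WT lungs, and more Cxcr5, Ccl5 and Cxcr4. In KO, 15 members (27.8%) were lower, against 7.89% of all genes, and 8 (14.8%) higher, against 7.52%. The median difference was -0.16, against 0.03 for all genes. Ligands dominated the lower side, 12 of 15, and receptors the higher side, 6 of 8. This comparison shares arrays with the 2 responses above and is not independent of them.

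On the lower side, Ccl12 differed most, 6.03-fold (-2.59 ± 0.23, adjusted p = 2.83e-05), then Ccl2 at 4.01-fold (-2.0 ± 0.25, adjusted p = 2.68e-04) and Ccl8 at 3.30-fold (-1.72 ± 0.30, adjusted p = 0.00215). Ackr1 was 3.11-fold lower (-1.64 ± 0.28, adjusted p = 0.00193) and Ccr1 2.80-fold (-1.48 ± 0.20, adjusted p = 4.19e-04). Ackr3 was 2.68-fold lower (-1.42 ± 0.10, adjusted p = 7.92e-06). For all of these no KO bleomycin array reached the lowest WT bleomycin array. Cxcl10 (-1.39), Ccl7 (-1.32), Cxcl9 (-1.25), Ccl17 (-1.24), Ccl9 (-1.10) and Cxcl12 (-0.66) were lower too. The second probe set of Cxcl12 differed by -1.32 ± 0.18, adjusted p = 9.17e-04. With all probe sets averaged, Cxcl9 differed by -0.76. For Ccl17 the bleomycin arrays of the genotypes did not overlap. Cxcl3, Ccl6 and Cxcl16 passed narrowly (0.0288, 0.0367 and 0.0315 as adjusted p) and lost their calls under some alternatives, with adjusted p up to 0.119, 0.156 and 0.120. The arrays whose absence ended the call were WT bleomycin replicate 3 and KO bleomycin replicates 1 and 2 for Cxcl3, and WT bleomycin replicates 1 and 3 and KO bleomycin replicates 1 and 2 for Cxcl16. For Ccl6 they were all WT bleomycin arrays, KO bleomycin replicates 1 and 2, WT saline replicate 1 and KO saline replicates 2 and 3. In a fit over probe sets, the second set of Ccl6 passed (-0.54 ± 0.12, adjusted p = 0.0152) and the brighter one did not (adjusted p = 0.0557). The second set of Cxcl16 passed there as well (-0.37 ± 0.11, adjusted p = 0.0489). Cxcl3 had 3.24, 3.42 and 3.48 on the KO bleomycin arrays, 2.90, 2.96 and 3.06 on the KO saline arrays, 3.67, 3.63 and 4.08 on the WT bleomycin arrays and 2.98, 3.09 and 3.17 on the WT saline arrays. Without WT bleomycin replicate 3 its difference was -0.27.

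On the higher side, Cxcr5 was 2.06-fold higher in KO (1.04 ± 0.21, adjusted p = 0.00525) and Ccl5 1.91-fold (0.93 ± 0.16, adjusted p = 0.00188). For both, the KO bleomycin arrays lay in or near the saline range and the WT bleomycin arrays below it. Cxcr4 (0.61 ± 0.11, adjusted p = 0.00218), Cx3cl1 (0.56 ± 0.11, adjusted p = 0.00351), Ccr7 (0.55 ± 0.15, adjusted p = 0.0234) and Cxcr2 (0.48 ± 0.14, adjusted p = 0.0325) followed. For Cx3cl1, averaging its probe sets gave 0.32. Ccr10, a receptor of skin- and mucosa-homing lymphocytes, had 5.57, 5.53 and 5.27 on the KO bleomycin arrays, 5.29, 5.00 and 5.04 on the KO saline arrays, 5.04, 5.00 and 5.10 on the WT bleomycin arrays and 4.92, 5.06 and 5.25 on the WT saline arrays. It was higher in KO after bleomycin (0.41 ± 0.11, adjusted p = 0.0228) and did not pass for either response. Ccr1l1, a dim relative of Ccr1, had 3.78, 4.12 and 3.72 on the KO bleomycin arrays, 3.61, 3.65 and 3.71 on the KO saline arrays, 3.54, 3.42 and 3.37 on the WT bleomycin arrays and 3.49, 3.77 and 3.46 on the WT saline arrays. It was higher in KO after bleomycin, without overlap (0.43 ± 0.11, adjusted p = 0.0202). The call of Ccr7 was lost without WT bleomycin replicate 1 or 2 or KO bleomycin replicate 1 or 3, and that of Cxcr2 without any WT bleomycin array or KO bleomycin replicate 1 or 2 (adjusted p up to 0.0933 and 0.139). The call of Ccr10 was lost without WT bleomycin replicate 1 or 2 or KO bleomycin replicate 1 or 2, and that of Ccr1l1 without WT bleomycin replicate 2 or 3 or KO bleomycin replicate 2 (adjusted p up to 0.0962 and 0.0739). In the same comparison 6 of 7 NK markers and 5 of 7 B cell markers were higher in KO and 5 of 11 macrophage markers lower. Of the neutrophil markers 4 of 8 were higher and 1 lower, of the T cell markers 3 of 9 were higher and of the lung epithelial markers 3 of 8 were higher. The part of these markers in the differences was not tested.

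**Figure D4:**
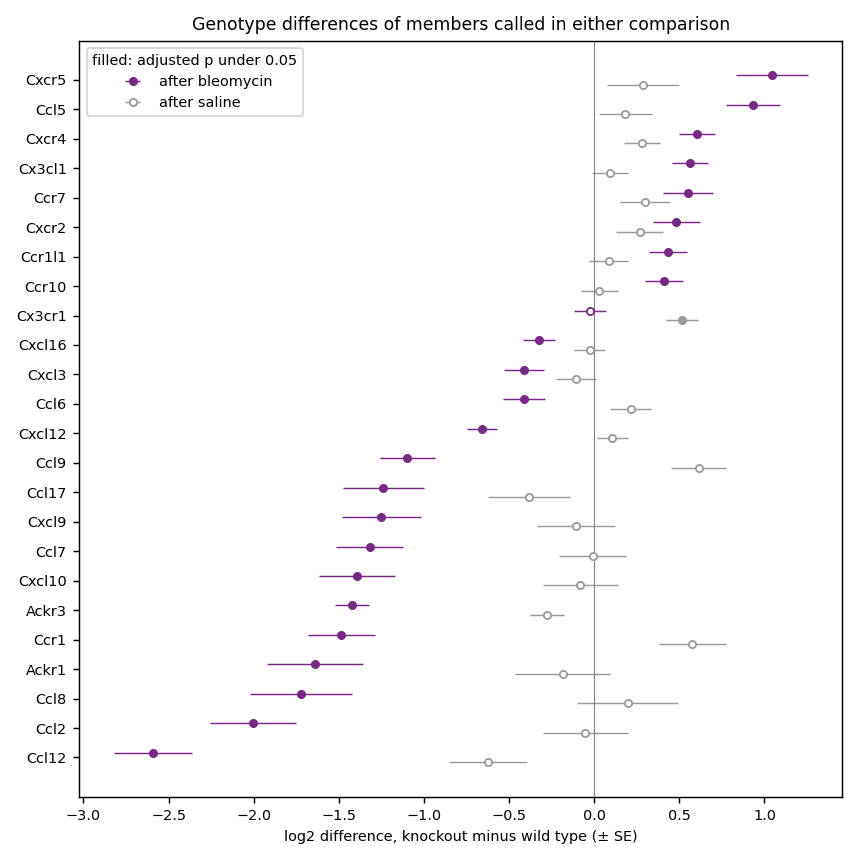
Log2 difference between genotypes (knockout minus wild type, x axis, with SE bars) after bleomycin (purple) and after saline (grey) for the members called in either, ordered by the first. Ccl12 (-2.59) stands at 1 end and Cxcr5 (1.04) at the other, and Cx3cr1 alone is filled after saline.

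After saline 1 member differed between the genotypes. Cx3cr1 was called higher in KO (1.85%), against 0.297% of all genes, and limma called 0 lower, against 0.192%. At an unadjusted p under 0.05, where all genes were not counted, 5 members were lower and 6 higher. Cx3cr1 had 7.06, 7.24 and 6.98 on the KO saline arrays, against 6.64, 6.54 and 6.54 on the WT saline arrays, a 1.43-fold difference (0.52 ± 0.09, adjusted p = 0.0296) without overlap. The call was lost without any 1 of the 6 saline arrays (adjusted p = 0.0636 to 0.128), with the saline groups fitted alone (0.0628) and with averaged probe sets (0.0897). Without KO bleomycin replicate 1 the count after saline was 3, and without KO bleomycin replicate 2 it was 2. Ccr2 (0.82 ± 0.18, adjusted p = 0.0782), Ccl9 (0.61 ± 0.16, adjusted p = 0.161) and Ccr1 (0.58 ± 0.20, adjusted p = 0.309) did not pass, and for these 3 no KO saline array overlapped the WT saline arrays. The same held for Cxcr4 (0.28 ± 0.11, adjusted p = 0.373). In the negative direction it held for Ccl28 (-0.58 ± 0.13, adjusted p = 0.0879), Ackr1, Ackr2, Ackr3, Cxcl1 and Cxcl14, and none of them passed. How many of all genes were without overlap was not counted. Ccl12 had a negative difference that did not pass (-0.62 ± 0.23, adjusted p = 0.355). Among 8 neutrophil markers, 4 were higher in KO after saline, S100a9 by 1.37 ± 0.25, while Cxcr2 did not pass (0.27 ± 0.14, adjusted p = 0.547).

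Ligands and receptors were then set side by side in 31 known pairs. In WT both partners rose in 7 pairs, which were Ccr2 with Ccl2, Ccl7 and Ccl12, Ccr1 with Ccl3, Ccl6 and Ccl9, and Ackr3 with Cxcl12. They moved in opposite directions in 6: Cxcl12 rose and Cxcr4 fell, Cxcl13 rose and Cxcr5 fell, Cxcl2 and Cxcl3 rose and Cxcr2 fell, and Ccl5 and Cx3cl1 fell while Ccr1 and Cx3cr1 rose. The ligand alone was called in 7, among them Ccl8 with Ccr8, Cxcl9 and Cxcl10 with Cxcr3, and Ccl17 and Ccl22 with Ccr4. The receptor alone was called in 4, and neither in 7. Pairs share genes (Ccr1 is in 5 of them), so they are not independent.

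In KO the ligand alone was called in 5 pairs and neither partner in 26. Among the 26 were pairs of Cxcl9, Cxcl10, Ccl20, Cxcl3, Ccl12 and Ccl22, ligands close to the threshold in KO. The response differed between genotypes for both partners in 5 pairs, Ccl2, Ccl7 and Ccl12 with Ccr2, Ccl9 with Ccr1 and Cxcl12 with Ackr3, and each of these differences was negative. The Ccr2 difference was lost in 12 of 19 alternatives, while Ccl9, Ccr1, Cxcl12 and Ackr3 kept theirs in all of them, other probe sets of Ccr1 and Cxcl12 aside. After bleomycin, KO against WT, both partners were lower in 3 pairs, Ccl6 and Ccl9 with Ccr1 and Cxcl12 with Ackr3. In 3 others the partners differed in opposite directions, Ccl5 with Ccr1, Cxcl3 with Cxcr2 and Cxcl12 with Cxcr4.

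**Figure D5:**
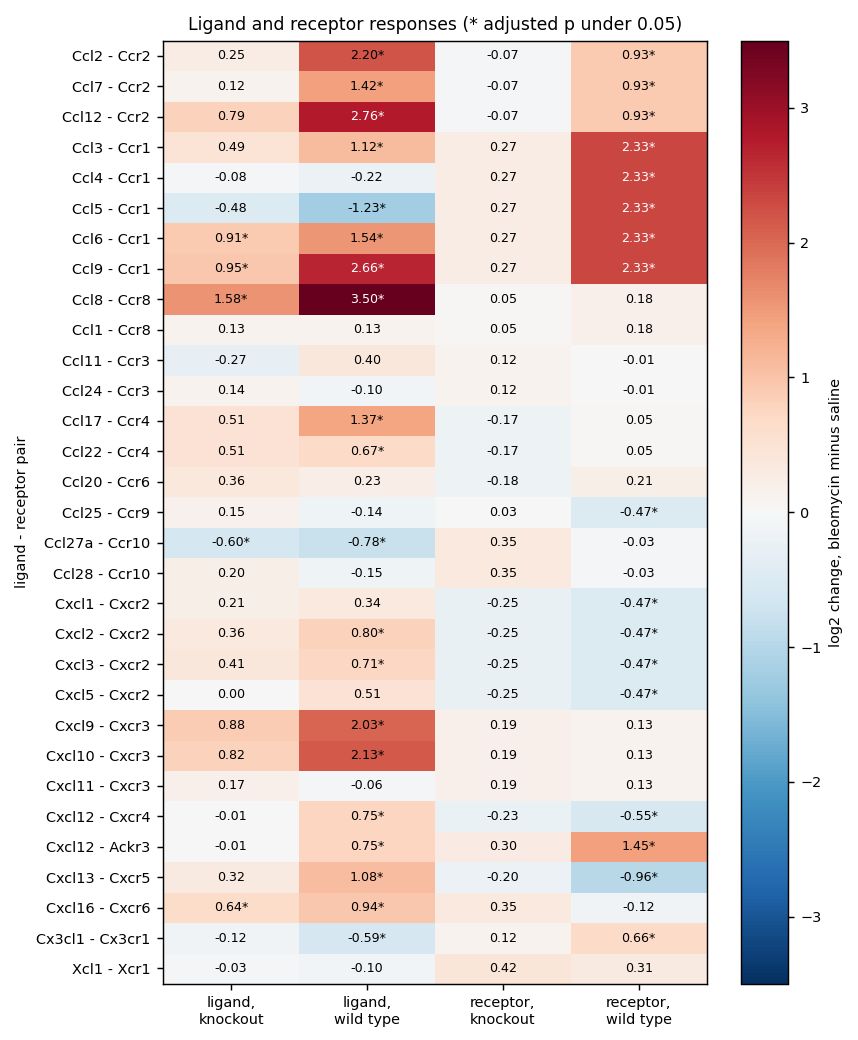
Log2 change with bleomycin of the ligand and the receptor of each of 31 pairs (rows) in knockout and wild type (columns), with stars at an adjusted p under 0.05. Both wild type cells carry a positive starred value for 7 pairs, and no knockout receptor carries a star.

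Downstream of these receptors, 25 of 28 listed signalling genes were measured. In WT 8 of the 25 rose, against 13.3% of all genes, and 2 fell, against 14.4%. In KO 1 of the 25 rose, against 1.98%. Ncf1, a subunit of the phagocyte NADPH oxidase, rose most (0.46 ± 0.09, adjusted p = 0.0153 in KO, 1.20 ± 0.09, adjusted p = 2.02e-06 in WT). Arrb2, a beta-arrestin that ends receptor signalling, rose in WT (0.92 ± 0.15, adjusted p = 6.84e-04), as did Pik3r5 (0.82 ± 0.11, adjusted p = 1.34e-04) and Pik3cg (0.68 ± 0.11, adjusted p = 5.29e-04), the subunits of the phosphoinositide kinase that G proteins activate. Gng2, a G protein subunit, and Grk3, a receptor kinase, fell (-0.41 and -0.36). The KO response was smaller for Ncf1, Fgr, Jak3 and Arrb2 (-0.74, -0.75, -0.52 and -0.83), and the median difference over the list was -0.17, against 0.04 for all genes. These 4 of 25 compare with 3.0% of all genes. After bleomycin Gng2 and Grk3 were higher in KO and Jak3 and Ncf1 lower, 2 of 25 each way, against 7.52% and 7.89% of all genes.

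Of the members, 20 have more than 1 probe set, and for 11 of them another probe set gave a different call in some comparison. Opposite signs where neither set passed are not in this count. They occurred in further members, such as Ackr2 in WT (-0.14 and 0.16). In a fit over probe sets, the second set of Ccl6 showed a smaller KO response (-0.79 ± 0.17, adjusted p = 0.0364), where the brighter set did not pass (-0.63 ± 0.18, adjusted p = 0.0842). For Cxcl12 the second set had a larger difference between responses (-1.51 ± 0.26, adjusted p = 0.0125) and the dimmest one did not pass (0.00 ± 0.40, adjusted p = 0.999), nor did it in WT (0.43 ± 0.28, adjusted p = 0.315) or between genotypes after bleomycin (-0.06 ± 0.28, adjusted p = 0.931). The dim second set of Ccr1 did not pass for that difference (-0.80 ± 0.26, adjusted p = 0.132). Dim second sets of Cx3cr1 and Cxcl9 and all 4 dim other sets of Ccr9 missed calls that the brighter set had. A dim set of Cx3cl1 had a positive difference between responses (0.53 ± 0.10, adjusted p = 0.0234), where the brightest set did not pass. Cxcl14, a ligand of epithelium and fibroblasts, did not pass in WT with its brightest set (0.26 ± 0.16, adjusted p = 0.279) and rose with the other (0.83 ± 0.18, adjusted p = 0.00607). Cxcl15, a lung epithelial chemokine known from mouse and the brightest member, was higher in KO after bleomycin with its second set (0.63 ± 0.16, adjusted p = 0.0300) and did not pass with its first (0.27 ± 0.13, adjusted p = 0.254). For Ackr4, which clears homeostatic CC ligands, the 2 other sets were called in opposite directions after bleomycin (0.78 ± 0.22, adjusted p = 0.0410 and -0.48 ± 0.12, adjusted p = 0.0293), so no direction is given. Family genes without a probe set of their own were not analysed here.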

How the data were processed

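Whole-lung RNA from 12 samples was hybridized to Affymetrix arrays, 1 per sample. The authors deposited 1 log2 RMA value per probe set and array, and per the submitters' processing notes affy, RMA and limma were used. Versions and a genome build are not given in the sources used here, and detection calls were not used. Of 45101 probe sets, 34958 are annotated to 1 gene, 932 to several and 9211 to none. Of the first, 34754 matched the mouse gene table by Entrez identifier, and the brightest per gene was kept (18194 genes). Of 62 protein-coding family genes in that table, 9 had no such probe set.

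All 12 arrays entered 1 limma fit of group means with eBayes (limma 3.58.1, R 4.3.3, 8 residual and 4.86 prior degrees of freedom), tested on simulated data, with 5 contrasts and Benjamini-Hochberg adjustment over all genes. Array number limits the precision. Each member called in any contrast is named. Members called in KO, between responses or between genotypes, those changed by at least 1 in WT, and called receptors have values on every array. Marker and signalling lists, pairs and members were chosen with earlier results of these data known. Alternatives were a filter on dim genes, 2 scalings, eBayes with trend, averaged probe sets, contrast groups alone, array weights, a replicate block, each array left out, and, chosen after seeing the data, every probe set on its own. Figures used matplotlib 3.10.9.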

Additional observations from a re-analysis of the deposited data

Results flagged for a closer look

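For 11 members the effect of bleomycin differed between the KO and WT lungs by the test of the difference itself (limma, adjusted over all genes), which is why they are given again here as KO response minus WT response. The differences were -2.06 for Ccr1, -1.97 for Ccl12, -1.95 for Ccl2, -1.92 for Ccl8 and -1.71 for Ccl9. They were -1.31 for Cxcl10, -1.31 for Ccl7, -1.15 for Ackr3, -1.0 for Ccr2, -0.77 for Cxcl12 and -0.54 for Cx3cr1. With 3 arrays per group, single arrays were not examined for standing apart by a fixed test.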

How the results depend on the processing

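Of 69 calls of members over the 5 comparisons, 49 stood in every alternative on 1 value per gene that could be computed, 20 were lost in some and 0 turned sign. That tally leaves out the probe sets taken on their own: by another probe set Ccr2 in WT (-0.09), Cx3cl1 in WT (0.00) and the Cxcl12 difference (0.00) had the opposite sign without passing, and some calls of Ccr1, Ccr9, Cx3cl1, Cx3cr1, Cxcl9 and Cxcl12 were missed. In that fit the probe sets used here lost calls too. These were the differences between responses of Ccr2 and Cx3cr1 (adjusted p = 0.0637 and 0.0551). Cx3cr1 after saline (0.0559) and Ccl6 between genotypes after bleomycin (0.0557) were also lost. The count of members called in KO was 12 with array weights (5 as reported), and the count after saline was 7 with array weights and 0 with averaged probe sets (1 as reported); the cause was not tested. With a single array left out, the counts ranged from 26 to 31 for WT, 3 to 12 for KO, 6 to 12 for the difference between responses, 17 to 26 for KO against WT after bleomycin and 0 to 3 after saline. The labels do not say what a replicate number marks. With group means removed, 2 of 18 same-numbered pairs of arrays correlated above 0.1 (-0.297 to 0.203). Differently numbered pairs ran from -0.226 to 0.358. With 3 arrays per group, such correlations cannot show whether samples were paired. With the replicate number as a block, the counts were 29, 5, 10, 24 and 1 in the same order, and the Ccr2 difference (adjusted p = 0.0558) and the Ccl27a change in KO (adjusted p = 0.0656) were lost. Array weights gave 16 members for the difference between responses, 2 of them positive. Members that did not pass have no settled sign: under some alternative it turned for 12 of 25 in WT, 5 of 49 in KO, 9 of 43 for the difference, 10 of 31 after bleomycin and 18 of 53 after saline. The filter on dim genes gives no value for the 15 dim members. Signal near background limits Ccl2, Ccl7, Cxcl2, Cxcl3, Ccl3, Ccr9 and Ccr1l1 most.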

Other observations

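Chemokine-related genes outside the symbol rule also changed. Ppbp, a platelet chemokine, was lower after bleomycin (-0.99 ± 0.24, adjusted p = 0.0462 in KO, -1.42 ± 0.24, adjusted p = 8.08e-04 in WT) and higher in KO than in WT after bleomycin (0.96 ± 0.24, adjusted p = 0.0176). Pf4, a second platelet chemokine, did not pass in either genotype (-0.20 ± 0.22, adjusted p = 0.700 in KO, 0.48 ± 0.22, adjusted p = 0.128 in WT). Ccrl2, an atypical receptor-like protein that presents chemerin, fell in WT (-0.72 ± 0.16, adjusted p = 0.00448), and so did Rarres2, which encodes chemerin (-0.41 ± 0.11, adjusted p = 0.0135), while the chemerin receptor Cmklr1 did not pass (-0.38 ± 0.13, adjusted p = 0.0503). In KO the changes of Ccrl2 and Rarres2 were -0.25 and -0.06, and neither passed.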
